A study of Rattus norvegicus with 12 samples.

Results

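The genes described here set the pace of the G1 phase of the cell cycle, in input RNA of newborn and older rat hearts. They are the D cyclins Ccnd1, Ccnd2 and Ccnd3, the E cyclins Ccne1 and Ccne2, the kinases Cdk2, Cdk4 and Cdk6, the transcription factor E2f1 and the retinoblastoma gene Rb1. Members were chosen by gene symbol, and 9 of the 10 symbols were found, each on 1 row, among the 16898 genes of the deposited table. E2f1 was not found under its symbol and is not analysed here. The samples are heart tissue of Sprague Dawley rats, newborn (postnatal day 0) or older, an age that the labels give as day 7 and the column headers as 10D. No genotype, treatment or transgene is named in the labels. Each age has 3 input libraries, that is RNA before any pull-down of N6-methyladenosine (m6A), and the pull-down libraries are not analysed here.

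In G1 a cell decides whether to copy its DNA. D cyclins, made in response to growth signals, bind Cdk4 or Cdk6 and phosphorylate the Rb1 protein, which otherwise holds E2F factors inactive. Freed E2F then switches on the E cyclins and the genes of DNA synthesis, and cyclin E with Cdk2 completes Rb1 phosphorylation. Rodent cardiomyocytes divide at birth and leave the cell cycle during the first weeks of life.

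Each value is an FPKM, a read number divided by the gene's length and its library's total. A value after ± is the SD over the 3 libraries of an age. Library totals, worked back from the steps of the FPKM values, ran from 13489816 to 16297533 reads. Levels of different genes can be set side by side because FPKM is per length, but they rest on the lengths the authors used, here 912 bases for Cdk4 up to 3809 for Ccnd1. Cardiomyocyte markers checked the tissue, with summed FPKM of 6 genes between 46311 and 60809 in every library. Most of that sum was Myl2 (log2 fold change -0.37, not called), and 1 of 6, Myh6, was called higher (0.75). The summed level of 6 fibroblast markers was 628 to 941 FPKM at day 0 and 1632 to 1830 in older hearts (5 of 6 called higher). Most of that sum was the collagen genes Col1a1 and Col3a1. The marker not called, Tcf21, had a log2 fold change of -0.39 (limma adjusted p = 0.466). The sum of 5 endothelial markers was 177 to 214 and then 260 to 283 (1 of 5 called). Pericyte and smooth muscle markers summed to 127 to 140 FPKM and then 184 to 210. That rise rested on Rgs5, a pericyte marker, at 17.5 to 44.4 FPKM and then 106 to 125 (called higher, log2 fold change 1.85). Cnn1, a smooth muscle marker, was called lower (-2.91), and the other markers of this type were not called. Of 5 proliferation markers none was called, with sums of 78.1 to 129 FPKM at day 0 and 66.6 to 72.1 in older hearts. Day 0 replicate 3 stood apart, with the lung surfactant gene Sftpc at 23.1 FPKM there and listed at 0 in the other 5 libraries and the fast skeletal troponin gene Tnnt3 at 57.6 FPKM there and at most 4.56 elsewhere. In whole tissue, fewer cells of a type and less RNA per cell cannot be told apart.

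The test was limma on log2(FPKM + 1), fitted over the 13117 genes whose mean reached 1 FPKM, with calls at a Benjamini-Hochberg adjusted p under 0.05. All 9 members passed that filter. Cdk4, Ccnd1 and Ccnd3 fell with age, none rose, and 6 members did not pass the test. Of all genes tested, 9.26% were called, 5.73% lower and 3.52% higher. At an unadjusted p under 0.05 stood 7 members, and 25.9% of all genes. The libraries of the ages did not overlap in 4 members, all lower in older hearts (Cdk4, Ccnd1, Ccnd3 and Cdk2), where 20.3% of all genes were separated in that direction. The median log2 fold change, older minus day 0, was -0.73 over the members and -0.11 over all genes. Without day 0 replicate 3, 1 member was called, Cdk4. Without day 0 replicate 1 or 2 the count was 2 and 1, and without any 1 of the older libraries it was 0. Calls over all genes went from 1214 to 1130 without day 0 replicate 3, and to 521 and 477 without replicates 1 and 2. Without older replicates 1, 2 and 3 they numbered 436, 363 and 436.

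**Figure D1:**
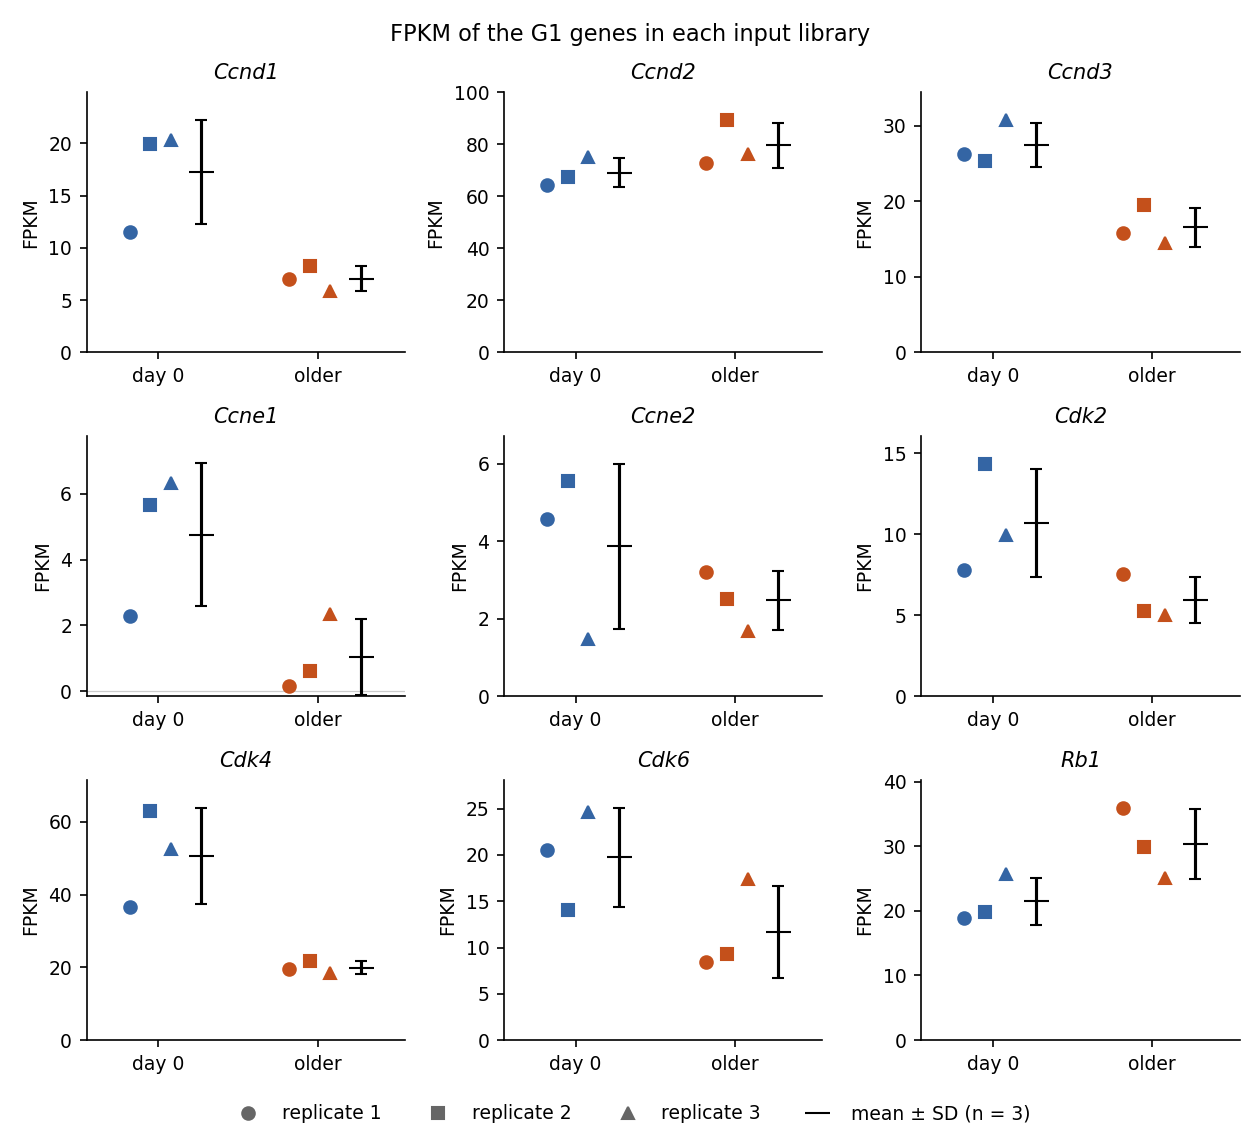
FPKM (vertical axes, each from about 0) of the 9 members in each of the 3 day 0 and 3 older input libraries, with symbols for replicate numbers and bars for mean ± SD. The older libraries lie below all day 0 libraries in Cdk4, Ccnd1, Ccnd3 and Cdk2, and the ages overlap in the other 5.

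RefSeq promoter windows (rat build GRCr8, 250 bases before to 50 after the start of the gene, 5′ to 3′ on the gene's strand) were matched by symbol for 5 members. Those of Cdk4 and Ccnd3, which fell, and of Rb1, which had a positive log2 fold change, are shown so that the sites a reader would look for can be seen in place. Capitals mark CACGTG (the E box of MYC-type factors), CCAAT (the box bound by NF-Y) and the E2F letters TTTCCCGC, TTTCGCGC, TTTGCCGC and TTTGGCGC, searched on both strands. The windows lie at chr7:64771203-64771502 (+), chr9:20897826-20898125 (-) and chr15:54911808-54912107 (-).
Cdk4: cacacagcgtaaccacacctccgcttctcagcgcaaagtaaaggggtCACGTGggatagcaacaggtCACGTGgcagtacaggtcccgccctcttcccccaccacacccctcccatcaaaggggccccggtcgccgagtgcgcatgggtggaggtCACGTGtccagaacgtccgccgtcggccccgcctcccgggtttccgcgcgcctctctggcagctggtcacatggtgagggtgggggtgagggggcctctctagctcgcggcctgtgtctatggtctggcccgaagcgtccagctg
Ccnd3: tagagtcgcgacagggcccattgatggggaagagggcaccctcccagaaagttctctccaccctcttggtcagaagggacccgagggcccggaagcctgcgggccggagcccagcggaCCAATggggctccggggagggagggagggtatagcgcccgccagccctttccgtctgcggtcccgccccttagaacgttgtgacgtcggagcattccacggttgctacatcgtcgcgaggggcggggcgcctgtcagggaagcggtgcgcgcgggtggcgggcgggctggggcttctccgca
Rb1: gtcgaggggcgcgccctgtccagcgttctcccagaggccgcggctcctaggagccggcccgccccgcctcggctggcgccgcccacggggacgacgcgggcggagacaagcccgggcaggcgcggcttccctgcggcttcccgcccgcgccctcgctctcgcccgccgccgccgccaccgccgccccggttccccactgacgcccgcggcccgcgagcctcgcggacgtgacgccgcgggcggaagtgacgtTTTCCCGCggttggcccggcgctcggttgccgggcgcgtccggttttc
The Cdk4 window holds 3 E boxes, the first at bases 48 to 53 counted from 1 at its 5′ end, and 6.42% of all 33469 windows of this length hold at least 1. The Rb1 window holds 1 E2F match at bases 253 to 260, found in 2.14% of all windows, and the windows of Ccnd3, Ccne1, Cdk2 and Cdk4 hold none of these letters. Ccnd3 and Cdk2 each hold 1 CCAAT, and 37.5% of windows hold at least 1. GC boxes (GGGCGG, not marked above) were also searched, and all 5 member windows hold at least 1, as do 33.1% of windows. Only exact letters were searched, so near matches were not counted. Motifs were chosen after the sequences had been seen. A match is a description of the letters and not of binding. Ccnd1, Ccnd2, Ccne2, Cdk6 and E2f1 were not matched.

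Among the D cyclins, Ccnd1 and Ccnd3 fell and Ccnd2, the most abundant, did not pass the test. Ccnd1, the cyclin best known as an early target of growth signals, was at 11.5, 19.9 and 20.3 FPKM in day 0 replicates 1 to 3 and at 7.01, 8.27 and 5.89 FPKM in older replicates 1 to 3. Every older library lay below every day 0 library, and day 0 replicate 1 was the lowest of its age. The means were 17.2 ± 4.99 and 7.06 ± 1.19 FPKM (SD, n = 3), a log2 fold change of -1.15 (SE 0.25, limma adjusted p = 0.0345), resting on 337 to 1260 reads per library. With 1 library left out the limma adjusted p of Ccnd1 was 0.0294 without day 0 replicate 1 and between 0.0852 and 0.124 without any other, of which day 0 replicate 3 gave 0.0852. The Ccnd1 call was also lost when libraries were centred on their median gene (log2 fold change -1.03, limma adjusted p = 0.0512).

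Ccnd3, the D cyclin of many differentiated tissues, was at 26.2, 25.3 and 30.8 FPKM at day 0 and at 15.8, 19.4 and 14.4 FPKM in older hearts. The ages were separated, with older replicate 2 nearest to the day 0 libraries. Means were 27.4 ± 2.92 and 16.5 ± 2.60 FPKM (SD, n = 3), a log2 fold change of -0.70 (SE 0.16, limma adjusted p = 0.0385). The call of Ccnd3 was lost whichever 1 of the 6 libraries was dropped (limma adjusted p of 0.0621 to 0.125, and 0.0749 without day 0 replicate 3). It was likewise lost after median centring (-0.58, limma adjusted p = 0.0776), and the authors' deposited table gives Ccnd3 an adjusted p of 0.0558.

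Ccnd2 was at 64.3, 67.5 and 75.2 FPKM at day 0 and at 72.9, 89.3 and 76.4 FPKM in older hearts. Older replicate 1 lay below day 0 replicate 3, so the ages overlapped. The log2 fold change of Ccnd2 was 0.20 with a 95% interval of -0.08 to 0.48 (limma adjusted p = 0.344). Its mean was 69.0 ± 5.60 FPKM at birth and 79.5 ± 8.65 FPKM later, from 1287 to 2033 reads per library.

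The make-up of D cyclin RNA shifted towards Ccnd2. Ccnd2 made up 63.0%, 59.9% and 59.6% of summed D cyclin FPKM in the day 0 libraries and 76.2%, 76.3% and 79.0% in the older libraries, without overlap. The share of Ccnd1 went from 15.0% ± 3.35 to 6.83% ± 0.654 and that of Ccnd3 from 24.2% ± 1.65 to 16.0% ± 0.944. For each of these shares the two-sided exact permutation test over the 6 libraries gave p = 0.1, the smallest that 3 against 3 allows, so none can reach 0.05. Summed D cyclin FPKM averaged 114 ± 12.1 and then 103 ± 12.04, and the libraries overlapped (exact permutation p = 0.3). The difference in Ccnd2 share was 16.4 percentage points, 15.7 without day 0 replicate 3, and 15.4 to 17.5 over all choices of 1 dropped library.

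**Figure D2:**
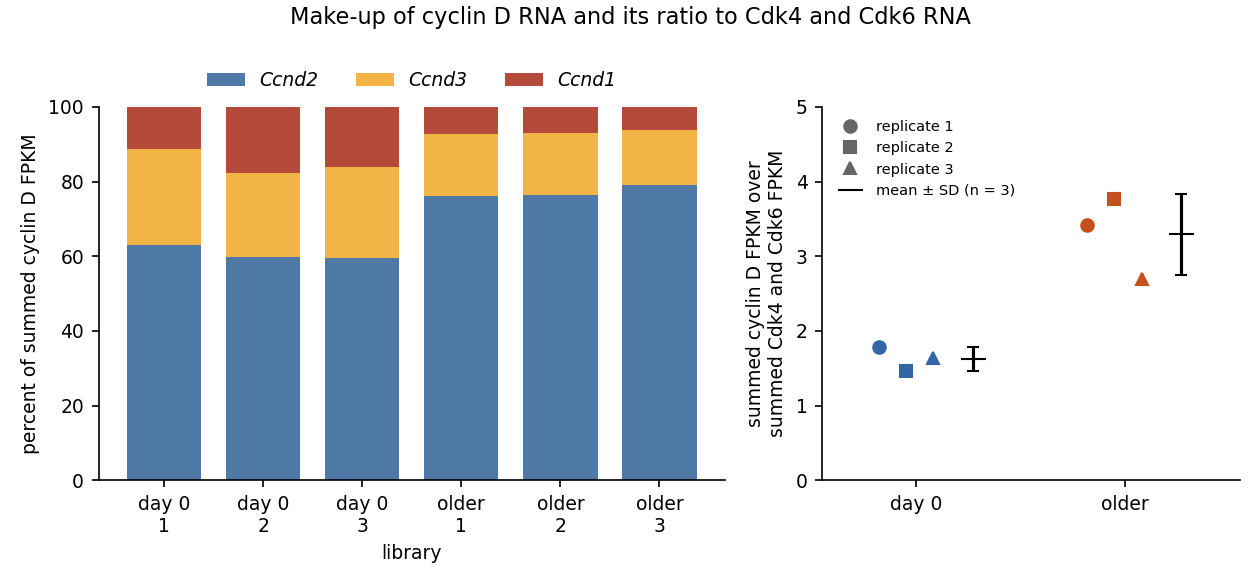
Left, percent of summed cyclin D FPKM held by Ccnd2, Ccnd3 and Ccnd1 in each library (stacked bars). Right, summed cyclin D FPKM over summed Cdk4 and Cdk6 FPKM (points are libraries, bars mean ± SD, n = 3). The Ccnd2 share is 59.6% to 63.0% at day 0 and 76.2% to 79.0% in older hearts, and the ratio is 1.46 to 1.78 and 2.70 to 3.76.

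Of the kinases, Cdk4 had the lowest p of all members. Cdk4, the catalytic partner of D cyclins, was at 36.7, 63.0 and 52.4 FPKM at day 0 and at 19.6, 21.8 and 18.4 FPKM in older hearts. Even the lowest day 0 library, replicate 1, was above all older libraries, which lay close together. The means were 50.7 ± 13.2 and 19.9 ± 1.73 FPKM (SD, n = 3), 2.55-fold lower in older hearts, with a log2 fold change of -1.28 (SE 0.20, limma adjusted p = 0.0115). In this fit Cdk4 ranked 359 of 13117 genes by p. The limma adjusted p was 0.0135 to 0.0456 with 1 day 0 library left out (0.0371 without replicate 3) and 0.0581, 0.0525 and 0.0572 without older replicates 1, 2 and 3. The Cdk4 call held under median centring, quantile normalization, rescaling with mitochondrial genes left out, the other filters and pseudocount, and in the authors' deposited table (log2 fold change -1.23, adjusted p = 0.00017).

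**Figure D3:**
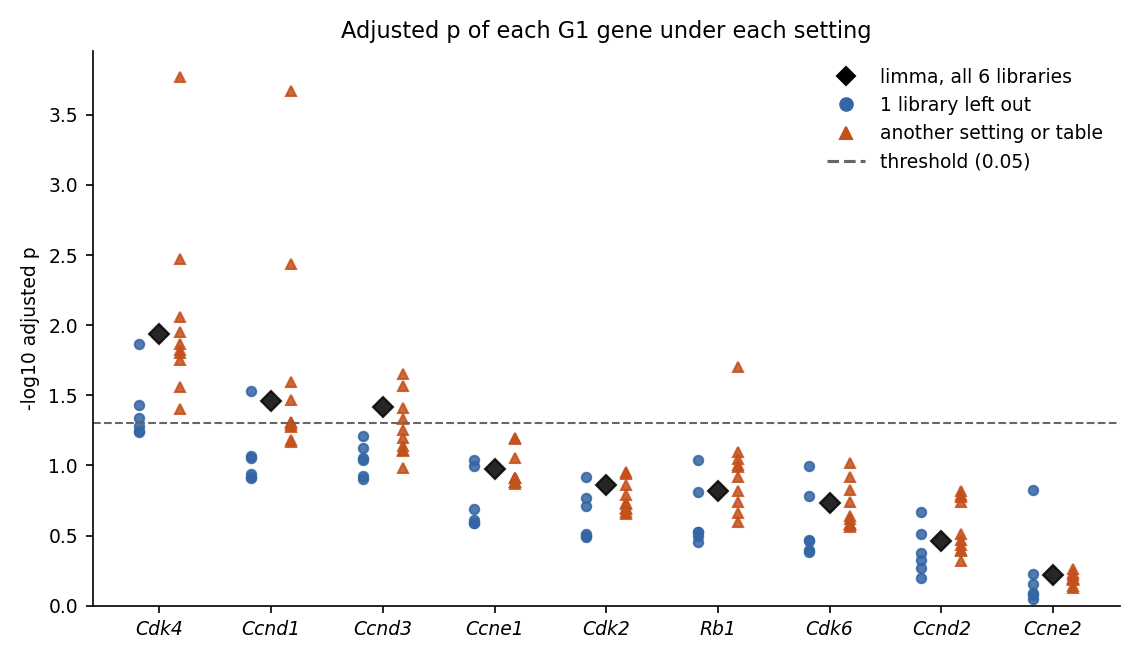
Adjusted p of each member as -log10 (vertical axis) with all 6 libraries (diamonds), with 1 library left out (circles) and under another setting or in the authors' deposited table (triangles), with the dashed line at 0.05. Cdk4 lies highest, and the circles of Ccnd3 all fall below the line.

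Cdk6, the other partner of D cyclins, was at 20.5, 14.0 and 24.7 FPKM at day 0 and at 8.42, 9.30 and 17.4 FPKM in older hearts. Older replicate 3 was about as high as the day 0 libraries and exceeded day 0 replicate 2. The log2 fold change was -0.74 with a 95% interval of -1.46 to -0.02 and did not pass after adjustment (limma adjusted p = 0.184). Means of Cdk6 were 19.8 ± 5.38 and 11.7 ± 4.97 FPKM (SD, n = 3). Cdk4 made up 71.3% ± 9.30 of the summed Cdk4 and Cdk6 FPKM in newborn hearts and 63.8% ± 10.8 later, with overlap (exact permutation p = 0.6).

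Taken as a sum, the kinases that pair with D cyclins were at 57.2, 77.0 and 77.1 FPKM at day 0 and at 28.0, 31.1 and 35.8 FPKM in older hearts. The ages were well separated in this sum (exact permutation p = 0.1, the smallest possible). The ratio of summed D cyclin to summed Cdk4 and Cdk6 FPKM was 1.63 ± 0.160 and then 3.29 ± 0.543, higher in all older libraries than in any day 0 library (exact permutation p = 0.1). These are ratios of RNA and say nothing of the assembled protein complexes.

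E cyclins had the lowest levels of the members, and neither passed the test. Ccne1, which activates Cdk2 at the entry to S phase, was at 2.28, 5.65 and 6.34 FPKM at day 0 and at 0.161, 0.604 and 2.35 FPKM in older hearts. Older replicate 3 stood just above day 0 replicate 1, so the ages overlapped, and the older libraries differed among themselves by more than 10 times. The older values rest on 5, 19 and 69 reads, and the 5 reads have an exact Poisson 95% interval of 1.62 to 11.7, which covers counting error only. The log2 fold change of Ccne1 was -1.56, the lowest of the members, with a 95% interval of -2.77 to -0.36 (limma adjusted p = 0.105).

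Ccne2, its close relative, was at 4.59, 5.56 and 1.48 FPKM at day 0 and at 3.21, 2.52 and 1.69 FPKM in older hearts. Day 0 replicate 3, the highest library for Ccne1, was the lowest of all 6 for Ccne2. The log2 fold change was -0.40 with a 95% interval of -1.40 to 0.61 (limma adjusted p = 0.609), and -0.83 without day 0 replicate 3 (limma adjusted p = 0.149). The sum of both E cyclins was 6.87, 11.2 and 7.82 FPKM at day 0 and 3.37, 3.13 and 4.04 FPKM in older hearts. That sum was separated between ages (exact permutation p = 0.1, the smallest possible), whereas the Ccne1 share of it ranged from 33.2% to 81.1% at day 0 and from 4.79% to 58.1% in older hearts (exact permutation p = 0.3).

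Cdk2, the kinase that E cyclins activate, was at 7.77, 14.4 and 9.96 FPKM at day 0 and at 7.56, 5.24 and 5.04 FPKM in older hearts. The ages were separated only narrowly, by day 0 replicate 1 and older replicate 1. Means were 10.7 ± 3.36 and 5.95 ± 1.40 FPKM (SD, n = 3), and the log2 fold change of -0.73 had a 95% interval of -1.36 to -0.11 and did not pass (limma adjusted p = 0.137).

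Rb1, the pocket protein gene that restrains E2F, had the highest log2 fold change of the members. It was at 18.8, 19.9 and 25.7 FPKM at day 0 and at 36.0, 29.9 and 25.1 FPKM in older hearts. The replicates numbered 3 overlapped, with the older one just below the day 0 one. Means were 21.5 ± 3.70 and 30.3 ± 5.47 FPKM (SD, n = 3), a log2 fold change of 0.48 with a 95% interval of 0.05 to 0.91 (limma adjusted p = 0.152). The authors' deposited table gives Rb1 a log2 fold change of 0.62 and an adjusted p of 0.0199, where the genes tested differ as well as the test. The log2 fold change differs too, and under median centring it was 0.60 without a call (limma adjusted p = 0.0992). Of the 16898 genes in the authors' deposited table, 6.26% were called higher. The ratio of E2f1 to Rb1 could not be formed here.

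**Figure D4:**
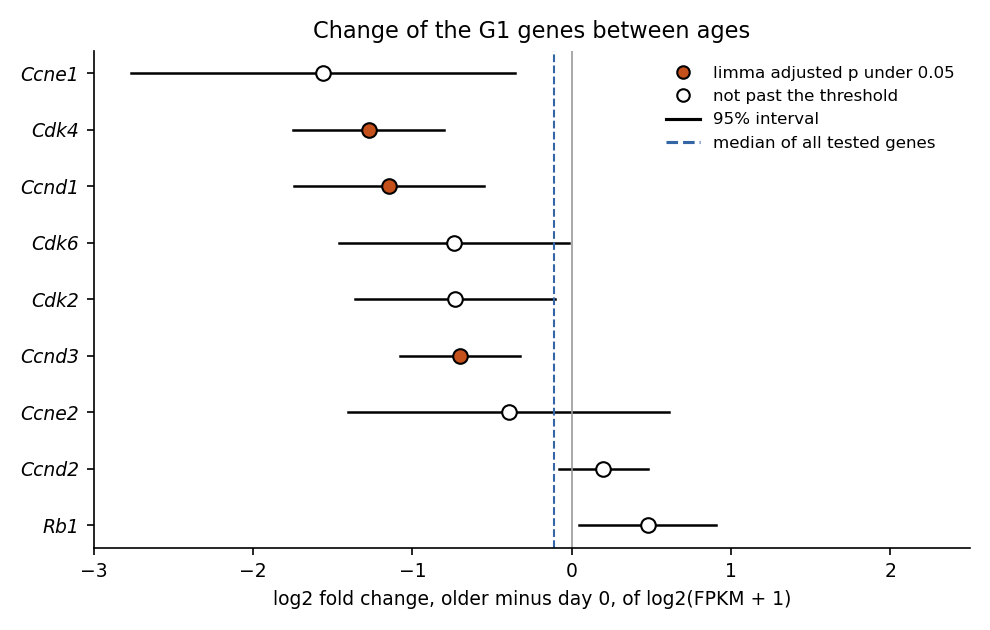
Log2 fold change of each member, older minus day 0 on the log2(FPKM + 1) scale (horizontal axis), with its 95% interval. Filled points passed a limma adjusted p of 0.05, and the dashed line is the median of all tested genes at -0.11. Cdk4, Ccnd1 and Ccnd3 are filled, and the intervals of Ccnd2 and Ccne2 span 0.

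By level, Ccnd2 stood first at both ages and its libraries did not overlap with those of the next gene. At day 0 Cdk4 came second, without overlap with Ccnd3. Ccnd3, Rb1, Cdk6 and Ccnd1 followed with means from 27.4 down to 17.2 FPKM, each overlapping its neighbour in that order. Cdk2 came next and overlapped Ccnd1, and Ccne1 and Ccne2 were last and overlapped each other. In older hearts Rb1 stood second at 30.3 FPKM, above Cdk4 at 19.9 and Ccnd3 at 16.5 FPKM, which overlapped each other. Ccnd3 and Cdk6 overlapped as well, as did Ccnd1 with Cdk2 and Ccne2 with Ccne1.

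Of 8999 other genes averaging 5 FPKM or more, those most like Cdk4 over the 6 libraries were Wdhd1, Ccnd1 and RF00100. Likeness was the root mean square difference of log2(FPKM + 1) after each gene was centred on its own mean, at 0.0919, 0.126 and 0.141. Wdhd1, which encodes a replication fork protein, was at 6.25, 9.97 and 8.38 FPKM at day 0 and at 2.89, 2.89 and 2.92 FPKM in older hearts. Picked for its likeness over these same libraries, Wdhd1 shared with Cdk4 the lower day 0 replicate 1 and the close older libraries. RF00100 is the name of an Rfam family of RNAs with many genomic copies, so its reads are uncertain.

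Other genes of the pathway were read from 7 lists with 72 tested genes, of which 4 were called higher and 10 lower, against 3.52% and 5.73% of all genes. Without day 0 replicate 3, 4 were higher and 9 lower, but only 4 or 5 in all were called without any 1 of the other 5 libraries. In the list of E2F, DP and pocket protein genes 1 of 11 fell and none rose, with a median log2 fold change of -0.28 against -0.11 over all genes. That gene was E2f6, a repressive E2F that does not bind Rb1, which went from 115 ± 14.1 to 58.1 ± 5.31 FPKM with an adjusted p of 0.00599 in limma (log2 fold change -0.97), and it was called whichever library was dropped. The activating factors E2f2 (0.52, limma adjusted p = 0.415) and E2f3 (-0.55, limma adjusted p = 0.294) did not pass. Rbl2, a relative of Rb1, averaged 9.38 ± 2.11 FPKM and then 15.3 ± 1.32, without a call (limma adjusted p = 0.0821).

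CDK inhibitors included 4 tested genes, of which 1 rose. It was Cdkn1a, encoding p21, at a log2 fold change of 1.70 (limma adjusted p = 0.00673). Cdkn1b, encoding p27, averaged 63.5 ± 14.5 FPKM and then 94.6 ± 5.12 (limma adjusted p = 0.0659), and was called without day 0 replicate 3 and under median centring. Cdkn1c, encoding p57, went the other way, from 13.7 ± 8.57 to 4.83 ± 0.958 FPKM with a log2 fold change of -1.20, and was not called either (limma adjusted p = 0.0977), though it was with voom on recovered reads. The median of the list was 0.08. Of 8 other cyclins and activators of the G1 and S kinases 1 fell, Cdc25a, a phosphatase that activates Cdk2, from 14.6 ± 2.14 to 7.62 ± 1.45 FPKM. Its log2 fold change was -0.86 with an adjusted p of 0.0419 in limma, up to 0.131 with 1 library dropped, and the call was lost under median centring. All 8 had negative log2 fold changes, with a median of -0.37, and 58.6% of all genes were negative.

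Among 12 ubiquitin ligase genes that act on cyclins and inhibitors 1 rose and 1 fell, with a median of -0.25. Fbxo31, an adaptor for cyclin D1 destruction, rose by 0.91 on the log2 scale, its mean going from 16.8 ± 1.27 to 32.5 ± 4.99 FPKM (limma adjusted p = 0.0139, or 0.0564 if older replicate 3 is dropped). Skp1, a shared subunit of SCF ligases, fell by 0.62 on the log2 scale (limma adjusted p = 0.0236, or 0.0917 if day 0 replicate 2 is dropped), a call lost under median centring. In the MYC network 2 of 9 rose and none fell, with a median of 0.23. Those were Mxd4 (0.82) and Mxi1 (0.78), both of which encode MAX partners that oppose MYC, with limma adjusted p up to 0.0697 and 0.115 with 1 library left out. Myc itself averaged 3.64 ± 0.618 FPKM and then 3.65 ± 0.580 (limma adjusted p = 0.997). Mycn averaged 13.3 ± 4.17 FPKM and then 4.82 ± 2.47 (limma adjusted p = 0.0674).

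E2F target genes of S phase entry fell in 6 of 23 and rose in none, with a median of -0.63 against -0.11 over all genes. Of the called genes the lowest were Gins1 (-1.81), Mcm6 (-1.36) and Mcm5 (-1.31), all parts of the replicative helicase, with limma adjusted p up to 0.122, 0.0751 and 0.0745 with 1 library left out. The other 3 called were Mcm3 (-1.28) and Mcm2 (-0.94), of the same helicase, and Rrm1 (-0.96), a subunit of ribonucleotide reductase, with limma adjusted p up to 0.126, 0.0624 and 0.0498. The Mcm3 call was lost whichever library was dropped. It was also lost under median centring (limma adjusted p = 0.0536), which left 5 genes of the list called. Orc1, of the origin recognition complex, had a log2 fold change of -1.55 and was not called (limma adjusted p = 0.0766). Of the MuvB core, which pairs with pocket proteins or with B-MYB to repress or activate cell cycle genes, 1 of 5 fell. Lin9 went from 8.59 ± 0.984 to 2.42 ± 0.414 FPKM, a log2 fold change of -1.49 with an adjusted p of 0.0102 in limma, or 0.0534 if older replicate 2 is dropped. Without day 0 replicate 3 the E2F targets had 5 lower genes and the MYC network 1 higher gene. Summed levels of fibroblast and endothelial markers were higher in all older libraries, as given above. So was the sum of pericyte and smooth muscle markers, which rested on Rgs5 while Cnn1 was called lower. The part of these cell types in these differences and in those of the members was not tested.

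**Figure D5:**
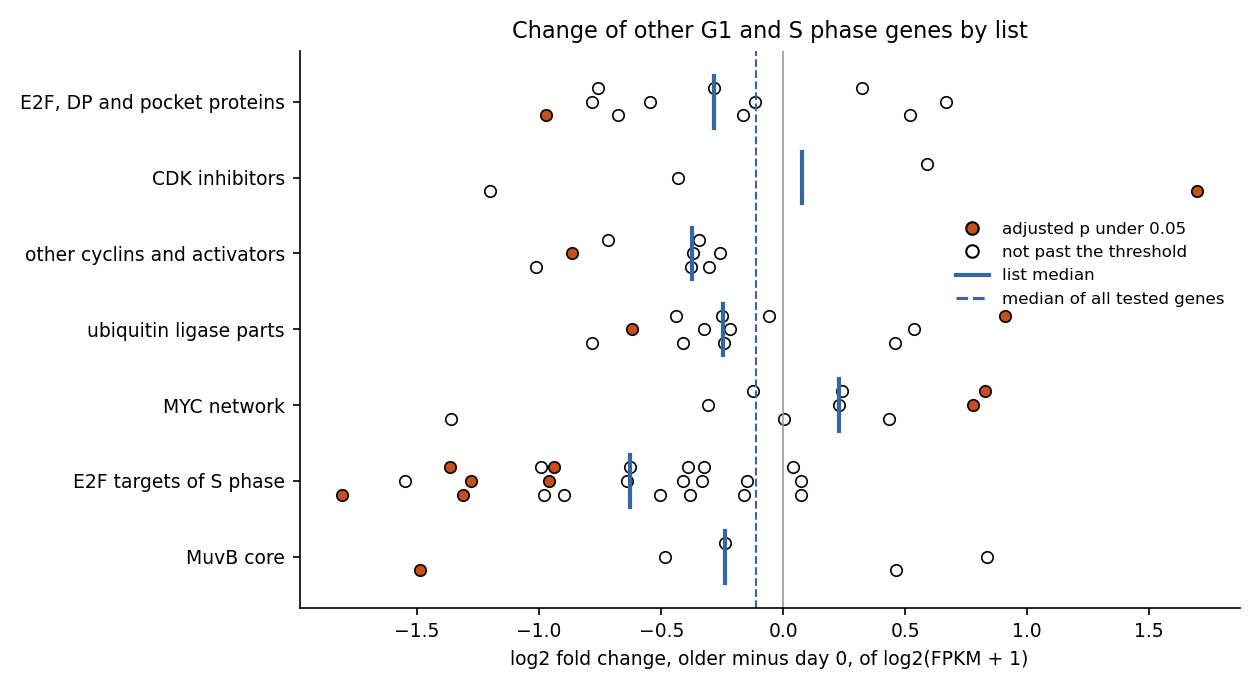
Log2 fold change (older minus day 0, log2(FPKM + 1) scale) of each tested gene in the 7 lists, with filled points at a limma adjusted p under 0.05. Thick bars are list medians and the dashed line the median of all genes at -0.11. The E2F targets have the lowest list median at -0.63 and the MYC network the highest at 0.23.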

How the data were processed

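The deposited table holds FPKM values per gene and library, as the values themselves show, beside p-values (raw and adjusted) and log2 changes from the authors' own test. Per the submitters' processing notes, HISAT2 and HOMER 4.10 were among the tools and rn5 among the builds named, with no role stated. Read counter, strand and annotation were not given in the sources used here. Per the labels' protocols, libraries were depleted of ribosomal RNA, and SMART cDNA was amplified by PCR. OD columns were taken as day 0, and 10D columns as the day 7 samples because no other input age is left in the labels. Nothing says that replicates came from separate animals, so the spread that p-values measure may be technical.

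Steps between the deposited FPKM values of a gene gave back whole reads for 100% of 16898 genes (relative tolerance 1e-11, 1e-09 for high genes), 986 of them up to a shared factor. The recovery and the fit were tested on simulated data. Reads were amplified by PCR without molecular identifiers, so the Poisson interval covers counting error at most. Between 2 libraries of the same age, 60.1% to 76.1% of genes differed beyond counting error (chi-square test per gene, unadjusted p under 0.05). Only genes with enough reads in a pair were tested, 13759 to 13833 of them.

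FPKM is not a count, so log2(FPKM + 1) was tested with limma 3.58.1 in R 4.3.3 (lmFit, eBayes with trend, 3 against 3 libraries, Benjamini-Hochberg over 13117 genes). This scale understates changes of low genes. Shares and sums (9 quantities, not adjusted) had two-sided exact permutation tests. Alternatives were the pseudocount, filters, scalings, the trend, voom on recovered reads, a replicate block and leaving out each library. All members are named. Of each list the called genes with the 3 highest and 3 lowest changes were to be named, with the 3 genes most like the member of lowest p. E2f2, E2f3, Rbl2, Cdkn1b, Cdkn1c, Orc1, Myc, Mycn, Rgs5 and Cnn1 were named after their values were seen. Members and lists were chosen with earlier results of these data known. Promoter windows came from RefSeq (GRCr8).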

Additional observations from a re-analysis of the deposited data

How the results depend on the processing

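Direction held in every alternative run for the 9 members and for the shares and sums. Of the called members, Cdk4 kept its call in every setting except the loss of any older library. Ccnd1 lost its call under median centring (log2 fold change -1.03), with mitochondrial genes left out of the scaling (-1.03), without the trend (-1.15) and with a replicate block (-1.15). Ccnd3 lost its call under median centring (-0.58), quantile normalization (-0.60), the scaling without mitochondrial genes (-0.58), no trend (-0.70), the replicate block (-0.70) and in the authors' deposited table (-0.61), where Rb1 was called (0.62). With 1 library left out the log2 fold change ran from -1.49 to -1.10 for Cdk4, from -1.40 to -1.02 for Ccnd1 and from -0.82 to -0.61 for Ccnd3. Members called numbered 1 under median centring, the mitochondrial scaling, no trend and the replicate block, and 0 to 2 with 1 library left out. Genes called over the whole table numbered 1214, against 669 without the trend, 1835 with voom on recovered reads, 1992 in the authors' deposited table, 501 with the replicate block and 363 to 1130 with 1 library left out. Called list genes numbered 14, against 9 without the trend, 4 with the replicate block and 4 to 13 with 1 library left out. With voom on recovered reads 20 list genes were called, and 21 in the authors' deposited table, where 74 were tested. Of all calls 38.1% were higher, and 57.1% after median centring, 56.4% after quantile normalization, 57.4% with the mitochondrial scaling and 53.1% in the authors' deposited table. These scalings moved the median log2 fold change of all genes from -0.11 to 0.01, -0.02 and -0.001. The cause of the shifts in counts and shares of calls was not tested.

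Deviations of same-numbered libraries from their age means correlated at -0.04, -0.003 and -0.05, and those of other pairs at -0.02 to 0.06. With 3 libraries per age, centred on their own mean, this cannot show whether the libraries were paired. The replicate block therefore stands only as an alternative. Ccne1 rests on 5 to 202 reads per library. E2f1, and the ratio of E2f1 to Rb1, were not run.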
